A study of Mus musculus with 12 samples.

Results

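Lipid droplet coat and lipase genes are described here in the mouse left ventricle after infarction. The group holds 10 genes, chosen by name for their roles and matched on gene symbol, out of 18050 genes in the deposited table, and all 10 were found and tested. They are the coat genes Plin2, Plin4 and Plin5, the lipase genes Pnpla2, Lipe and Ces1d, the synthesis genes Dgat1 and Dgat2, and the uptake genes Lpl and Cd36. The RNA was from wild-type mouse left ventricles collected 7 days after surgery, which was either MI (taken to be myocardial infarction, in which part of the heart wall loses its blood supply) or a sham operation, with 6 libraries per group. Age, sex, strain and the way the infarct was made are not given in the sources used here. The submitters' processing notes part the libraries of both groups into replicates 1 and 2 and replicates 3 to 6. Nothing in the labels says that libraries came from separate animals, so the p-values reflect how far these libraries spread, and that spread may be technical.

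A lipid droplet is a core of stored triglyceride inside a cell, covered by a single layer of phospholipid and by coat proteins of the perilipin family. Heart muscle takes up fatty acids freed from circulating triglyceride, burns most of them in its mitochondria and stores the rest for a short time in small droplets. Storage ends in the DGAT step, which adds the last fatty acid to diglyceride. Release starts with adipose triglyceride lipase, encoded by Pnpla2, and goes on through hormone-sensitive lipase, encoded by Lipe.

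Of the 10 genes, 9 fell in MI ventricles and 1, Plin2, rose. Among all genes tested, 29.8% fell and 28.1% rose by the same rule. The same 9 and 1 were called lower and higher in each test on its own, where the shares of all genes were 38.0% lower and 37.9% higher with 12 libraries and 29.5% lower and 28.1% higher counted once. Within replicates 1 and 2 alone 32.9% of all genes were lower and 34.1% higher, and within replicates 3 to 6 alone 39.5% were lower and 42.2% higher, and there too 9 and 1 of the 10 genes were called. The median log2 fold change of the 10 genes was -2.04, beside 0.014 over all genes tested. On TMM-scaled counts MI and sham libraries did not overlap in any of the 10 genes, with MI lower in 9 and higher in 1, and such a gap was found in 21.3% of tested genes on the lower side and in 21.2% on the higher side. Ces1d and Dgat2 had the lowest log2 fold changes over 12 libraries and within replicates 3 to 6 alone, and the smallest fall was that of Dgat1, whose direction turned with the scaling as given below. A gene is said to have risen or fallen where 2 edgeR quasi-likelihood tests called it the same way at a Benjamini-Hochberg adjusted p under 0.05 over all genes. The 12-library test used every library, and the counted-once test used the sum of replicates 3 to 6 as 1 library per group. Log2 fold changes are MI over sham from the 12-library test unless another is named. Levels are CPM, counts scaled to a common library size after TMM adjustment.

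Library totals, transcripts of other tissues and beta-globin transcripts differed between the groups and sets of libraries. Expected counts summed to 18546662 and 18602226 in MI replicates 1 and 2 and to between 14168412 and 14410783 in MI replicates 3 to 6, against 15541334 and 16066681 in sham replicates 1 and 2 and between 9140353 and 9750764 in sham replicates 3 to 6. The biological coefficient of variation was 0.192 in MI replicates 1 and 2 and 0.0206 in MI replicates 3 to 6, against 0.112 and 0.0297 in the matching sham libraries. Replicates 3 to 6 thus lay far closer together than replicates 1 and 2. The lung epithelial transcripts Sftpc, Sftpb, Sftpa1, Sftpd, Scgb1a1 and Ager summed to 353 to 361 TPM in MI replicates 3 to 6 and to at most 5.28 TPM in every other library. The beta-globin transcripts Hbb-bs and Hbb-bt made up 0.0596% to 0.194% of the Hbb-b1, Hbb-b2, Hbb-bs and Hbb-bt counts in MI replicates 3 to 6, against 99.9% or more in sham replicates 3 to 6. MI replicates 3 to 6 thus held almost only Hbb-b1 and Hbb-b2 counts, and sham replicates 3 to 6 almost none. This share cannot be read in replicates 1 and 2, where Hbb-b1 and Hbb-b2 are blank. The lung and beta-globin transcripts both parted MI from sham within replicates 3 to 6. An effect of MI cannot be told apart from theirs within that set. Their part in the results was not tested. Values within each set are given beside the result of each gene and do not remove this limit for replicates 3 to 6.

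All 10 cardiomyocyte markers fell. Their median log2 fold change was -2.30 in the 12-library test, -3.94 within replicates 1 and 2 and -1.55 within replicates 3 to 6. Summed over the 10 markers, which include Myh6, Tnni3 and Mb, they reached 8040 to 11500 TPM in MI replicates 1 and 2 and 48200 to 49200 TPM in MI replicates 3 to 6, against 101000 to 102000 TPM and 115000 to 118000 TPM in the matching sham libraries. In RNA from whole tissue, fewer cells of a type and less RNA per cell cannot be told apart. Adipocytes, which hold the body's main droplets and express several of the 10 genes, were read from their own markers. The adipocyte list of 9 markers, 1 of which is Lipe itself, summed to 24.4 to 38.4 TPM in MI replicates 1 and 2 and 15.1 to 19.2 TPM in MI replicates 3 to 6, against 45.2 to 73.5 TPM and 21.8 to 28.2 TPM in the matching sham libraries. Of its defining genes, Adipoq averaged 1.68 TPM in MI replicates 1 and 2 and 0.1 TPM in MI replicates 3 to 6, against 2.67 TPM and 0.635 TPM in the matching sham libraries. Plin1 averaged 0.435 TPM in MI replicates 1 and 2 and was at 0 in MI replicates 3 to 6, against 1.57 TPM and 0.125 TPM in sham, and Lep was at 0 in sham replicates 3 to 6. Cfd averaged 8.76 TPM in MI and 5.58 TPM in sham replicates 1 and 2, with overlap. The libraries had 13.1 and 4.37 TPM in MI against 7.57 and 3.58 TPM in sham. By edgeR the log2 fold change of Cfd in that set was -0.04 (adjusted p = 0.964). The part of adipocyte transcripts in the results was not tested.

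**Figure D1:**
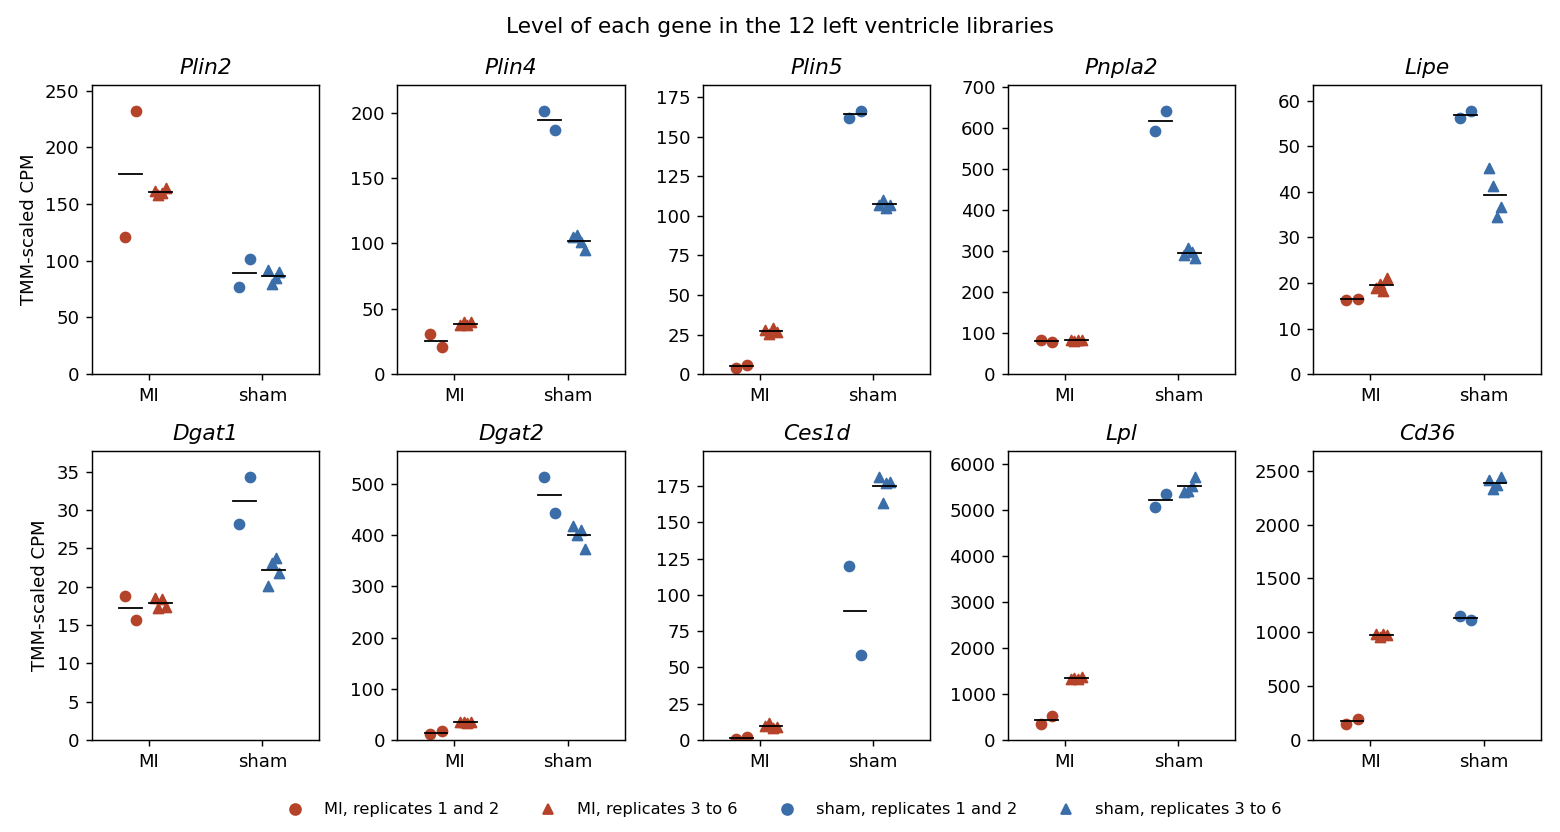
Level of each of the 10 genes in each library in TMM-scaled CPM on a linear axis from 0, with MI left of sham; circles are replicates 1 and 2, triangles are replicates 3 to 6, and bars are the means of those libraries. MI and sham do not overlap in any panel, and MI is above sham for Plin2 alone; in TPM the groups of Dgat1 and of Cd36 overlap.

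The genes lie on 6 chromosomes of the GRCm38 build, and 2 of the coat genes are neighbours. Plin4 (Entrez gene 57435, chr17:56100591-56109803, minus strand) and Plin5 (66968, chr17:56111601-56117596, minus strand) are 1797 bases apart, and Plin2 (11520) is at chr4:86648386-86670060 on the minus strand. Of the lipase genes, Pnpla2 (66853) is at chr7:141455198-141460743 on the plus strand, Lipe (16890) at chr7:25379527-25398710 on the minus strand and Ces1d (104158) at chr8:93166068-93197838 on the minus strand. The synthesis genes Dgat1 (13350) and Dgat2 (67800) are at chr15:76502015-76511953 and chr7:99153658-99182719, both on the minus strand. The uptake genes Lpl (16956) and Cd36 (12491) are at chr8:68880491-68907448 on the plus strand and chr5:17781690-17888801 on the minus strand. Exons of another gene on the opposite strand, 4732471J01Rik, cover 15.6% of Lipe exon bases, and Hdgfl2 covers 0.29% of those of Plin4. The other 8 have no such overlap. The sources used here do not give whether counting was by strand, and reads of Lipe and of 4732471J01Rik may be mixed.

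Upstream sequence was taken from RefSeq with the GRCm38.p6 build, as the 250 bases before each listed start, and 6 of the 10 genes were matched: Plin2, Plin4, Plin5, Pnpla2, Lipe and Cd36. The half-site AGGTCA, the core of the elements bound by PPAR and other nuclear receptors, which are known regulators of fatty acid genes in heart, was searched on both strands. It occurs in 13.8% of the 27025 promoters of the same length. The windows of Plin2, Cd36 and Plin5 hold it 1 time each and are shown for that reason, since Plin2 rose while Cd36 and Plin5 fell. Capitals mark the half-site, as AGGTCA or, on the other strand, TGACCT. The windows are chr4:86670060-86670309 for Plin2, chr17:56117549-56117798 for Plin5 and chr5:17835897-17836146 for Cd36, all on the minus strand and written 5′ to 3′. Listed starts need not match the ends of the gene spans given above. The windows of Cd36 and Lipe lie inside those spans, and this Plin5 window reaches partly into its own.
Plin2: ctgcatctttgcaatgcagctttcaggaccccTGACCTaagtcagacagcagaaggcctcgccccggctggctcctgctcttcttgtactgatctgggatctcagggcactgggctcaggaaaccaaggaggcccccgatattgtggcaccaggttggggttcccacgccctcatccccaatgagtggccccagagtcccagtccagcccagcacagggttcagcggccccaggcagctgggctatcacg
Plin5: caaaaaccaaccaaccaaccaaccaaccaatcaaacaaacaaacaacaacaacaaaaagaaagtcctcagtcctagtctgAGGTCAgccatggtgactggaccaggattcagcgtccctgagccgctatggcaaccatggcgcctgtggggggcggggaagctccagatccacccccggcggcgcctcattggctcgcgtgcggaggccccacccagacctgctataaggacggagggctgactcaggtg
Cd36: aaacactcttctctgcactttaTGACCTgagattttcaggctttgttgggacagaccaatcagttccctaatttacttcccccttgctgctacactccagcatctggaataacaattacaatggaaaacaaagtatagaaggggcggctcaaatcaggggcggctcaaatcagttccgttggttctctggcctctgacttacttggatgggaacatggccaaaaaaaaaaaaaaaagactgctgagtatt
The gene that rose and the genes that fell thus shared these letters within the window. The half-site was not found in the windows of Plin4, Pnpla2 and Lipe, nor before a further listed start of Plin5. CACGTG, an E-box that contains the shorter ACGTG, was also searched on both strands and was found in Lipe, as in 6.0% of all promoters of that length (ACGTG in 16.6%). These matches are descriptions of letters and do not show that a factor bound there.

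Among the coats, Plin2 rose and Plin4 and Plin5 fell. Plin2 encodes the coat protein found on droplets of most cell types, and its level follows stored lipid in many of them. Plin2 had 121 and 232 CPM in MI replicates 1 and 2 and 162, 158, 160 and 164 CPM in MI replicates 3 to 6, against 77.1 and 102 CPM in sham replicates 1 and 2 and 92.0, 79.2, 84.9 and 90.4 CPM in sham replicates 3 to 6. MI replicate 2 stood highest, and the lowest MI library was above the highest sham library. Its log2 fold change was 0.92 (SE 0.13, edgeR adjusted p = 4.61e-05), a 1.89-fold higher level in MI, and it was 0.96 within replicates 1 and 2 and 0.94 within replicates 3 to 6. Counted once, it was 0.93 with an edgeR adjusted p of 0.0289, and that call ended without MI replicate 2 (0.65, adjusted p = 0.0651), without sham replicate 1 (0.80, 0.118) and without sham replicate 2 (1.03, 0.071). For each of the 10 genes the exact two-sided permutation p over 12 libraries was 0.00216, over replicates 3 to 6 it was 0.0286 and over replicates 1 and 2 it was 0.333, each the smallest these numbers of libraries allow.

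Macrophages, which can fill with droplets, gave more signal in the same libraries. Of 9 macrophage markers 8 rose, and the list summed to 7560 to 12500 TPM in MI replicates 1 and 2 and 6010 to 6210 TPM in MI replicates 3 to 6, against 653 to 667 TPM and 959 to 996 TPM in the matching sham libraries. Fibroblast markers summed to 20100 to 23600 TPM and 9310 to 9450 TPM in the MI libraries, against 1130 to 1190 TPM and 1640 to 1730 TPM in the sham libraries, and 6 of 7 rose. Their part in the rise of Plin2 was not tested.

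Plin5 encodes the perilipin of tissues that burn fat, which binds the Pnpla2 product and tethers droplets to mitochondria. Plin5 had 4.09 and 5.55 CPM in MI replicates 1 and 2 and 27.7, 25.5, 29.1 and 26.8 CPM in MI replicates 3 to 6, against 162 and 166 CPM in sham replicates 1 and 2 and 107, 110, 105 and 107 CPM in sham replicates 3 to 6. Both MI replicates 1 and 2 were far below the other 4 MI libraries, while the sham order was the reverse. By edgeR the log2 fold change was -2.89 (SE 0.46, edgeR adjusted p = 0.000104; counted once -4.09, adjusted p = 0.00531), and it was -5.10 within replicates 1 and 2 and -1.93 within replicates 3 to 6. Plin5 was thus 34.4-fold and 3.8-fold lower in MI in the 2 sets of replicates.

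Plin4, a coat gene of adipose tissue, skeletal muscle and heart, fell less than its neighbour. Plin4 had 30.6 and 20.5 CPM in MI replicates 1 and 2 and 37.3, 39.9, 37.3 and 39.7 CPM in MI replicates 3 to 6, against 201 and 187 CPM in sham replicates 1 and 2 and 105, 106, 101 and 94.6 CPM in sham replicates 3 to 6. The sets did not overlap in either group, with replicates 1 and 2 the lower in MI and the higher in sham. The log2 fold change was -1.90 (SE 0.24, edgeR adjusted p = 1.31e-05; counted once -2.44, adjusted p = 0.00321), and it was -2.95 within replicates 1 and 2 and -1.35 within replicates 3 to 6.

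The make-up of the perilipin transcripts differed between the groups. Shares were taken per length, as a part of the summed TPM of Plin1, Plin2, Plin3, Plin4 and Plin5 in each library, a sum chosen after the values were seen and given with no test. Plin2 made up 60.5% to 74.3% of the sum in the 6 MI libraries and 15.8% to 23.7% in the 6 sham libraries. Plin5 made up 1.64% to 11.3% in MI and 27.1% to 31.4% in sham. Plin3, which codes for a coat protein that moves between cytosol and droplets, made up 22.1% to 32.9% in MI and 40.2% to 43.8% in sham. Plin1, the adipocyte perilipin, stayed at or under 0.139% in MI and 0.487% in sham. The leading perilipin transcript was therefore Plin2 in every MI library and Plin3 in every sham library. The summed level overlapped between the groups over all 12 libraries, at 251 to 414 TPM in MI and 264 to 442 TPM in sham. Within replicates 3 to 6 it did not overlap, at 285 to 293 TPM in MI and 264 to 276 TPM in sham. Across 13294 genes the median log2 TPM ratio of MI over sham was 0.7 in replicates 1 and 2 and 0.62 in replicates 3 to 6. A like sum in TPM is thus not a like level on the TMM scale.

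**Figure D2:**
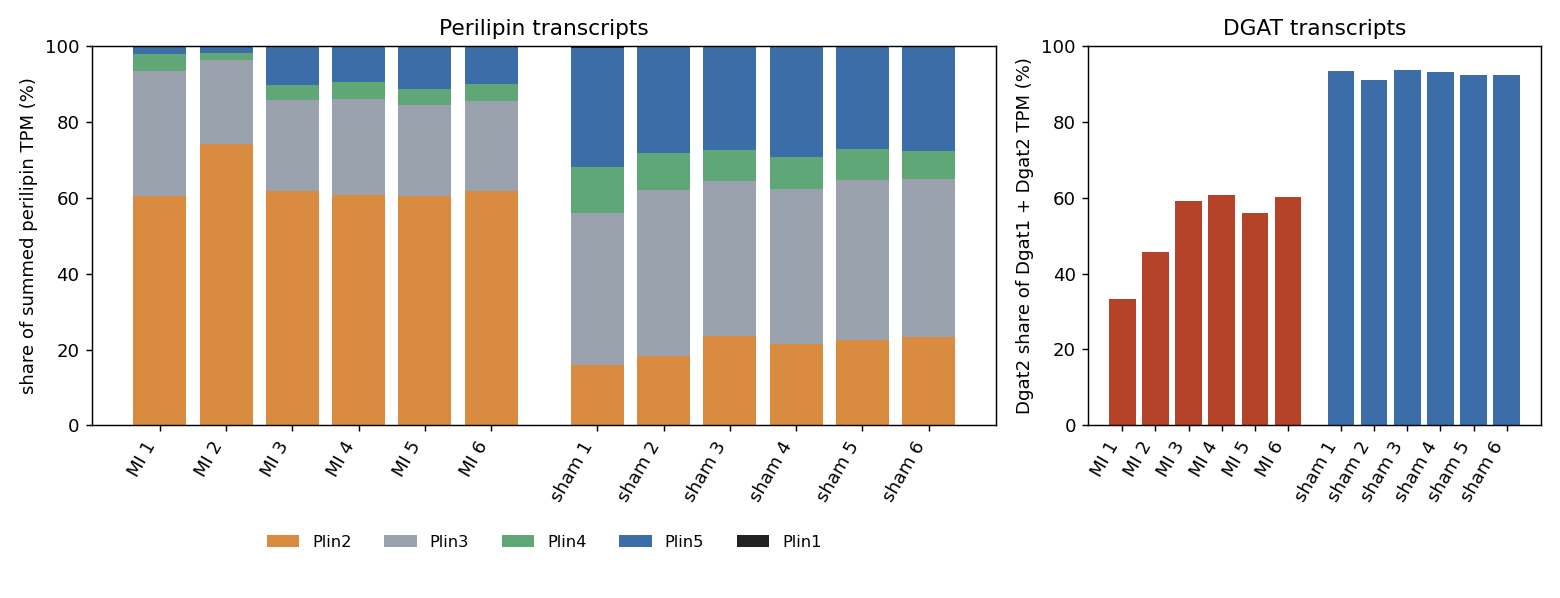
Left, share of each perilipin transcript in the summed perilipin TPM of each library in percent, stacked from 0 to 100, and right, Dgat2 as a percent of Dgat1 plus Dgat2 TPM; each bar is 1 library, with MI left of sham. Plin2 takes 60.5% to 74.3% in MI and 15.8% to 23.7% in sham, and Dgat2 takes 33.4% to 60.7% in MI and 91.0% to 93.7% in sham.

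All 3 lipase genes fell. Pnpla2 encodes the enzyme that takes the first fatty acid off stored triglyceride. Pnpla2 had 84.2 and 79.4 CPM in MI replicates 1 and 2 and 84.0, 81.1, 82.4 and 82.5 CPM in MI replicates 3 to 6, against 593 and 642 CPM in sham replicates 1 and 2 and 291, 308, 297 and 283 CPM in sham replicates 3 to 6. The 6 MI libraries lay within 79.4 to 84.2 CPM across both sets, so the sets differed in the sham libraries. Its log2 fold change was -2.19 (SE 0.17, edgeR adjusted p = 1.82e-07; counted once -2.58, adjusted p = 0.00146), with -2.93 within replicates 1 and 2 and -1.79 within replicates 3 to 6.

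Lipe encodes hormone-sensitive lipase, which acts mainly on diglyceride. Lipe had 16.3 and 16.5 CPM in MI replicates 1 and 2 and 18.8, 19.7, 18.2 and 21.2 CPM in MI replicates 3 to 6, against 56.2 and 57.7 CPM in sham replicates 1 and 2 and 45.3, 41.2, 34.4 and 36.6 CPM in sham replicates 3 to 6. MI libraries spanned 16.3 to 21.2 CPM, below the lowest sham library. By edgeR the log2 fold change was -1.28 (SE 0.13, edgeR adjusted p = 2.47e-06; counted once -1.55, adjusted p = 0.00182), with -1.81 within replicates 1 and 2 and -0.97 within replicates 3 to 6.

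Ces1d encodes a carboxylesterase known as a triglyceride hydrolase of liver and adipose tissue. Ces1d had 0.674 and 2.13 CPM in MI replicates 1 and 2 and 9.56, 11.7, 8.58 and 9.33 CPM in MI replicates 3 to 6, against 120 and 58.3 CPM in sham replicates 1 and 2 and 181, 163, 177 and 178 CPM in sham replicates 3 to 6. Replicates 1 and 2 were the lowest in both groups, and sham replicate 2 was the lowest sham library. The log2 fold change was -4.64 (SE 0.34, edgeR adjusted p = 1.39e-07; counted once -5.28, adjusted p = 0.00182), a 24.9-fold lower level in MI, with -6.00 within replicates 1 and 2 and -4.11 within replicates 3 to 6. Its close relatives in the same gene cluster were near 0: Ces1e, Ces1f and Ces1g averaged at most 0.193 TPM in MI and at most 0.64 TPM in sham within either set. Reads shared with such relatives could be split by the authors' counting. The liver list of 4 markers, Alb, Apoa1, Ttr and Apoa2, summed to 4.21 to 4.83 TPM in MI replicates 1 and 2 and 0.16 to 0.88 TPM in MI replicates 3 to 6, against 4.24 to 5.43 TPM and 1.51 to 2.14 TPM in the matching sham libraries, where Alb was at 0 in sham replicates 3 to 6. The part of liver transcripts in the Ces1d result was not tested.

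The pair of genes for the last step of triglyceride synthesis moved by very different amounts. DGAT1 and DGAT2 are unrelated enzymes that catalyse the same reaction. Dgat2 had 12.5 and 16.9 CPM in MI replicates 1 and 2 and 36.1, 35.0, 32.4 and 35.0 CPM in MI replicates 3 to 6, against 513 and 444 CPM in sham replicates 1 and 2 and 418, 400, 409 and 372 CPM in sham replicates 3 to 6. Every sham library was more than 10-fold above every MI library. Its log2 fold change was -4.02 (SE 0.25, edgeR adjusted p = 3.25e-08; counted once -4.55, adjusted p = 0.00106), a 16.2-fold lower level in MI, with -5.04 within replicates 1 and 2 and -3.48 within replicates 3 to 6.

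Dgat1 changed least and depended on the scaling. Dgat1 had 18.8 and 15.6 CPM in MI replicates 1 and 2 and 18.6, 17.2, 18.4 and 17.3 CPM in MI replicates 3 to 6, against 28.2 and 34.3 CPM in sham replicates 1 and 2 and 20.1, 23.1, 23.8 and 21.8 CPM in sham replicates 3 to 6. In replicates 3 to 6 the highest MI library was 18.6 CPM and the lowest sham library 20.1 CPM, a narrow gap. By edgeR the log2 fold change was -0.50 (SE 0.11, edgeR adjusted p = 0.000901; counted once -0.69, adjusted p = 0.0189), but scaled by library size alone it was -0.09 (adjusted p = 0.398) over 12 libraries and 0.08 (adjusted p = 0.274) in replicates 3 to 6. That scaling moves the median of all genes by 0.41, since TMM factors were 1.122 to 1.164 in MI and 0.8402 to 0.8852 in sham. In TPM, Dgat1 was 25.2 and 21.1 in MI replicates 1 and 2, against 24.1 and 28.1 in sham, and 20.2 to 22.7 in MI replicates 3 to 6, against 15.9 to 19.1 in sham. The other 9 genes kept their direction under every scaling and test that was run.

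Ratios between the 2 transcripts of a library do not depend on the scaling. The Dgat1 to Dgat2 ratio in TPM was 2.0 and 1.18 in MI replicates 1 and 2 and 0.648 to 0.784 in MI replicates 3 to 6, against 0.0705 and 0.0992 in sham replicates 1 and 2 and 0.0669 to 0.0839 in sham replicates 3 to 6. Dgat2 made up 33.4% to 60.7% of the DGAT transcripts in MI and 91.0% to 93.7% in sham, so that Dgat1 was the more abundant transcript only in MI replicates 1 and 2. The log2 ratio was higher by 3.52 in MI, with no overlap between the groups. Its adjusted p was 0.0036 in an exact two-sided permutation test over 12 libraries, adjusted over the 10 ratios examined. It was 4.20 within replicates 1 and 2 and 3.17 within replicates 3 to 6.

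Both uptake genes fell. Lpl encodes lipoprotein lipase, made in cardiomyocytes and carried to the capillary wall, where it frees fatty acids from circulating triglyceride. Lpl had 350 and 513 CPM in MI replicates 1 and 2 and 1320, 1350, 1330 and 1360 CPM in MI replicates 3 to 6, against 5060 and 5350 CPM in sham replicates 1 and 2 and 5390, 5420, 5520 and 5710 CPM in sham replicates 3 to 6. Sham libraries of both sets were close, and the MI libraries were not. The log2 fold change was -2.55 (SE 0.26, edgeR adjusted p = 2.4e-06; counted once -3.10, adjusted p = 0.0035), with -3.61 within replicates 1 and 2 and -1.99 within replicates 3 to 6.

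Cd36 encodes a membrane protein that carries long-chain fatty acids into muscle cells and is also found on macrophages, endothelial cells and adipocytes. Cd36 had 150 and 195 CPM in MI replicates 1 and 2 and 989, 956, 982 and 972 CPM in MI replicates 3 to 6, against 1150 and 1110 CPM in sham replicates 1 and 2 and 2410, 2330, 2370 and 2440 CPM in sham replicates 3 to 6. The highest MI library was 989 CPM and the lowest sham library 1110 CPM, and these came from different sets. In TPM the groups overlapped, since MI replicates 3 to 6 had 682 to 712 TPM and sham replicates 1 and 2 had 611 and 561 TPM, while within each set MI was lower. Its log2 fold change was -1.75 (SE 0.22, edgeR adjusted p = 1.54e-05; counted once -2.26, adjusted p = 0.00438), with -2.73 within replicates 1 and 2 and -1.24 within replicates 3 to 6. Cd36 thus fell while 8 of 9 macrophage markers rose in the same libraries.

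The falls differed in size between the 2 sets of replicates. All 9 genes that fell had the larger fall in replicates 1 and 2, and the difference was called for 9 of the 10 genes over 12 libraries and for 5 counted once, beside 55.0% and 10.4% of all genes. The 5 genes were called by both tests, beside 10.5% of all genes. With no filter on low counts, the counted-once calls of Plin4, Dgat2 and Cd36 ended (edgeR adjusted p = 0.0632, 0.0538 and 0.0533). As replicates 3 to 6 minus replicates 1 and 2, the difference in log2 fold change was 3.11 for Plin5 (SE 0.12, edgeR adjusted p = 3.74e-10, counted once 0.0133) and 1.53 for Plin4 (SE 0.16, adjusted p = 2.35e-06, counted once 0.0489). It was 1.5 for Dgat2 (SE 0.14, edgeR adjusted p = 8.61e-07, counted once 0.0402), 1.42 for Cd36 (SE 0.11, 1.78e-07, 0.0411) and 1.08 for Pnpla2 (SE 0.07, 5.73e-08, 0.036). Lpl, with 1.55, and Ces1d, with 1.81, missed the threshold counted once (edgeR adjusted p = 0.0584 and 0.208), as did Lipe with 0.78 (0.0609) and Dgat1 with 0.55 (0.282). The Ces1d difference over 12 libraries rested on single libraries, at 2.9 without MI replicate 2, 1.27 without MI replicate 1 (no longer called, edgeR adjusted p = 0.059) and 1.21 without sham replicate 1. For Plin2 the difference was -0.09 (SE 0.26, edgeR adjusted p = 0.794), but it was called in opposite directions without single libraries, at 0.48 without MI replicate 2 (adjusted p = 0.00334) and -0.44 without MI replicate 1 (0.00481). Cardiomyocyte markers moved with the set, their median being -3.94 within replicates 1 and 2 and -1.55 within replicates 3 to 6, and their part in these differences was not tested. Nor was that of the lung epithelial and beta-globin transcripts, which parted MI from sham within replicates 3 to 6.

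**Figure D3:**
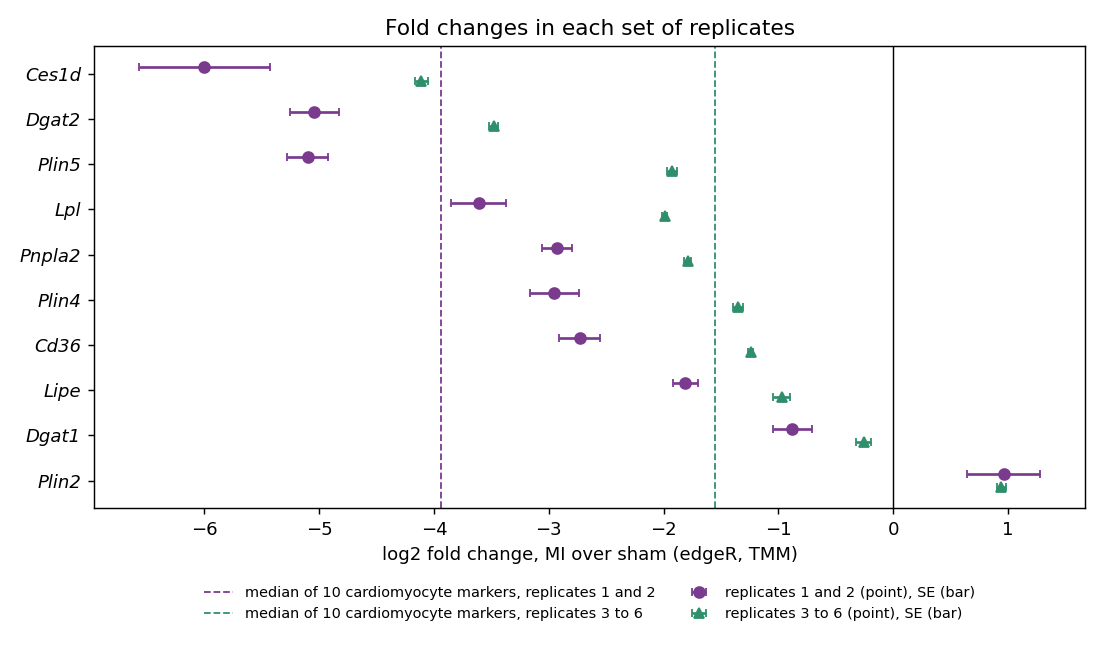
Log2 fold change of each gene, MI over sham, from edgeR with TMM scaling in replicates 1 and 2 (circles) and in replicates 3 to 6 (triangles); bars are standard errors derived from the F statistic and dashed lines are the medians of 10 cardiomyocyte markers, at -3.94 and -1.55. The 9 genes that fell lie further left in replicates 1 and 2, Plin2 lies near 0.95 in both, and Dgat1 in replicates 3 to 6 moves from -0.26 to 0.08 when library size alone is used.

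Set against the cardiomyocyte markers of the same library, the 10 genes parted into several kinds. Each gene's log2 TPM was taken minus the mean log2 TPM of the 10 markers, a comparison chosen after the values were seen and given with no test. Ces1d was lower in MI than in sham by this measure, with a difference of -2.31 within replicates 1 and 2 and -2.58 within replicates 3 to 6. Dgat2 was also lower, by -1.22 and -1.95, as was Plin5, by -1.29 and -0.40, and none of the 3 overlapped between groups. Plin2 was higher in MI, by 4.76 and 2.48, and so was Dgat1, by 2.98 and 1.23, again with no overlap. Lipe, Cd36 and Plin4 were higher within each set, by 2.01 and 0.56, by 1.1 and 0.31 and by 0.85 and 0.15, but overlapped over all 12 libraries. Pnpla2 and Lpl had no common direction, at 0.91 and -0.25 for Pnpla2 and at 0.20 and -0.46 for Lpl.

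Per length, Lpl and Cd36 were the most abundant of the 10 transcripts in both groups of replicates 3 to 6. In MI replicates 3 to 6 Cd36 averaged 699 ± 13.6 TPM and Lpl 656 ± 7.66 TPM (SD, n = 4), against 1080 ± 23.3 TPM and 1720 ± 46.5 TPM in sham (SD, n = 4). In MI replicates 1 and 2 Lpl averaged 247 ± 73.6 TPM and Cd36 143 ± 30.8 TPM (SD, n = 2), against 1870 ± 17.0 TPM and 586 ± 35.4 TPM in sham (SD, n = 2). Cd36 thus exceeded Lpl in MI replicates 3 to 6 alone. The log2 ratio of Cd36 to Lpl was higher in MI by 0.81 (adjusted p = 0.0312, exact permutation test over 12 libraries), by 0.90 in replicates 1 and 2 and by 0.76 in replicates 3 to 6. It overlapped between groups over all 12 libraries, and its adjusted p was 0.0649 without any 1 of MI replicates 3 to 6. Counted once, the exact permutation p of this ratio was 0.3.

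Several of the remaining transcripts held different places in the order of MI and sham libraries. Plin2 averaged 230 ± 110 TPM in MI replicates 1 and 2 and 178 ± 3.48 TPM in MI replicates 3 to 6, the second and the third of the 10 genes, against 71.8 ± 12.6 TPM and 61.4 ± 3.97 TPM in sham, the sixth and the seventh (SD, n = 2 and 4). In MI replicates 1 and 2 it could not be parted from Lpl, whose libraries were within its range. Pnpla2 kept the third or the fourth place, at 72.0 and 62.6 TPM in MI and 343 and 143 TPM in sham. Dgat2 ranged from 12.6 to 32.2 TPM in MI and from 212 to 342 TPM in sham, and its range met that of Pnpla2 in sham replicates 1 and 2. In MI replicates 3 to 6 Dgat2 and Plin5 were not apart, at 28.9 to 32.2 and 26.8 to 33.1 TPM. Ces1d was last in MI, at 0.78 to 2.59 TPM in replicates 1 and 2 and 8.79 to 11.9 TPM in replicates 3 to 6, and the fifth or the seventh in sham, at 114 TPM in replicates 3 to 6 and 67.5 TPM in replicates 1 and 2. Dgat1 was last in sham, at 26.1 and 17.5 TPM, though within replicates 3 to 6 it overlapped Lipe at 16.3 to 21.4 TPM.

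Genes that act on these lipases and coats were read with them as fixed ratios. Abhd5, the activator of the Pnpla2 product, fell (log2 fold change -0.88, SE 0.11, edgeR adjusted p = 1.64e-05), and G0s2, its inhibitor, fell too (-1.24, SE 0.08, 3.6e-08). Scaled by library size alone both still fell, at -0.47 for Abhd5 and -0.83 for G0s2. In TPM Abhd5 averaged 27.8 in MI and 44.3 in sham replicates 1 and 2, but 35.4 in MI and 36.0 in sham replicates 3 to 6. Exons of A730085K08Rik on the opposite strand cover 15.95% of Abhd5 exon bases. The Pnpla2 to Abhd5 ratio in TPM was 1.64 to 2.72 in MI and 3.54 to 8.34 in sham, a log2 difference of -1.30 that was -1.58 within replicates 1 and 2 and -1.17 within replicates 3 to 6. Pnpla2 to G0s2 was 1.17 to 1.5 in MI and 1.73 to 5.32 in sham, a log2 difference of -0.96. Pnpla2 thus fell more than its activator and more than its inhibitor. Pnpla2 to Lipe was 4.0 to 5.47 in MI and 6.58 to 11.6 in sham, a log2 difference of -0.91. For these 3 ratios the adjusted p was 0.0036 in the exact permutation test over 12 libraries, and the groups did not overlap.

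The Plin2 to Plin5 ratio moved most among the coats. It was 32.2 and 45.2 in MI replicates 1 and 2 and 5.36 to 6.48 in MI replicates 3 to 6, against 0.502 and 0.655 in sham replicates 1 and 2 and 0.737 to 0.862 in sham replicates 3 to 6. The log2 difference was 3.94 over 12 libraries (adjusted p = 0.0036, exact permutation test), 6.06 within replicates 1 and 2 and 2.88 within replicates 3 to 6. Plin4 to Plin5 was higher by 1.09 (adjusted p = 0.00619, exact permutation test), with overlap between MI replicates 3 to 6 and sham replicates 1 and 2, and by 0.72 without MI replicate 1 (0.00722). Plin5 to Tnni3, the cardiac troponin I gene, differed by -0.14 and was not called (adjusted p = 0.558, exact permutation test). It was lower by -0.50 in replicates 1 and 2 and higher by 0.05 in replicates 3 to 6, and a miss of the threshold does not show that both genes fell alike.

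The partners of lipoprotein lipase moved in opposite ways. Gpihbp1, the endothelial protein that carries the enzyme to the capillary lumen, fell (log2 fold change -1.53, SE 0.22, edgeR adjusted p = 5.25e-05). Angptl4, a secreted inhibitor of the enzyme, rose (1.61, SE 0.17, 2.55e-06), at 24.7 ± 8.35 and 26.3 ± 1.40 TPM in MI replicates 1 and 2 and 3 to 6 against 6.37 ± 2.53 and 4.84 ± 0.426 TPM in sham (SD, n = 2 and 4). The Lpl to Angptl4 ratio was 9.77 to 27.3 in MI and 231 to 406 in sham, a log2 difference of -4.20 with no overlap (adjusted p = 0.0036, exact permutation test). It was -4.92 within replicates 1 and 2 and -3.84 within replicates 3 to 6. Lpl to Gpihbp1 differed by -1.02 (adjusted p = 0.0135, exact permutation test), with some overlap between sets. Counted once, the exact permutation p of this ratio was 0.2. Of 7 endothelial markers 3 fell and 4 were not called, but 1 rose and 6 were not called when scaled by library size alone. Their median log2 fold change was -0.84 within replicates 1 and 2, where Emcn alone was above 0 (0.20), and -0.13 within replicates 3 to 6. Pecam1, Cdh5 and Kdr were at -0.54, -0.84 and -1.59 in the first set and at 0.39, 0.64 and 0.49 in the second. Gpihbp1 was at -2.53 and -1.02. The part of endothelial transcripts in its fall was not tested.

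**Figure D4:**
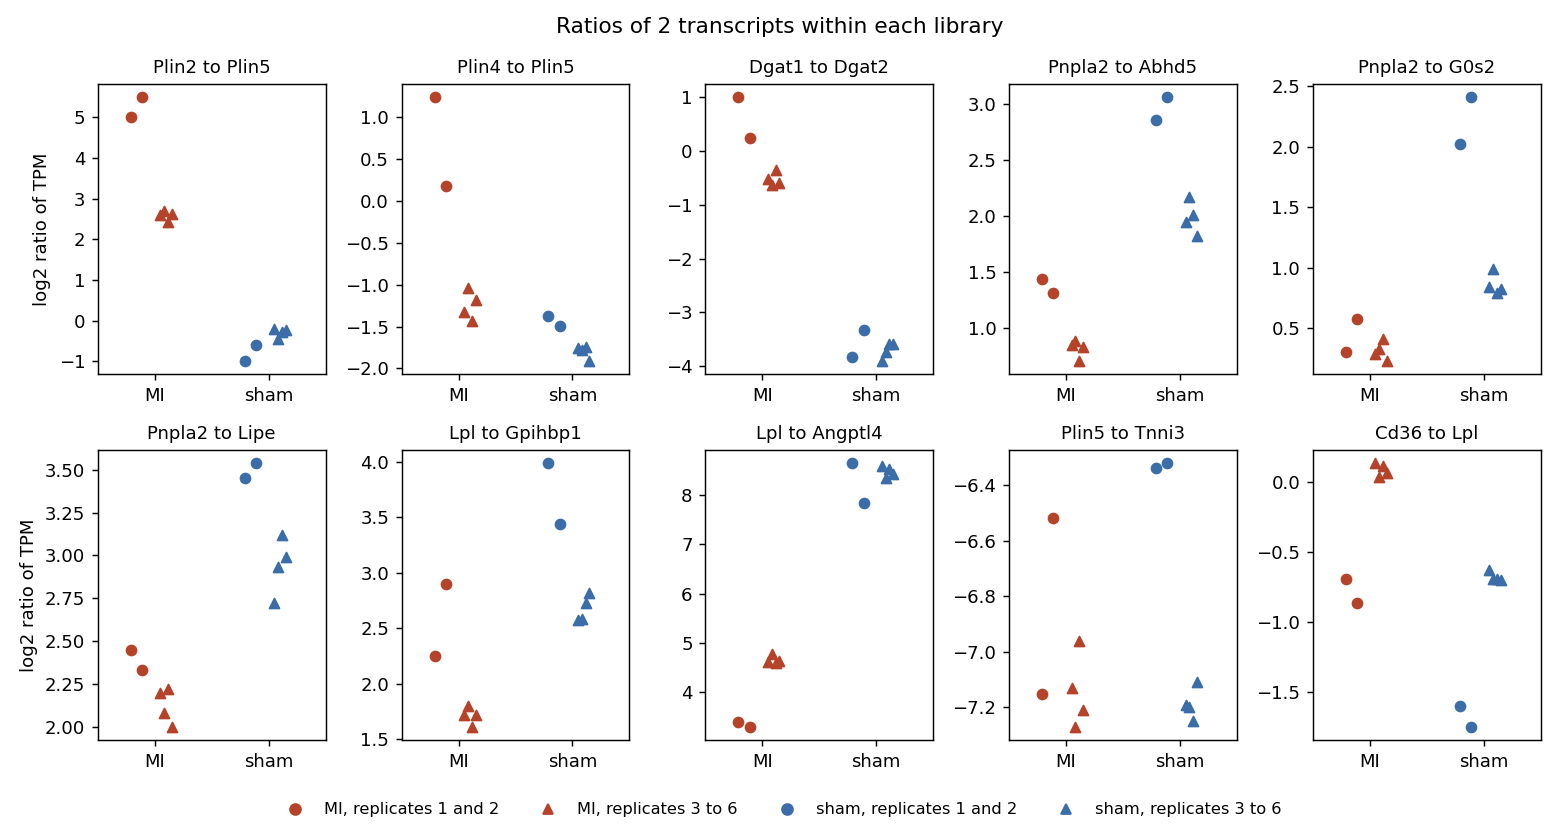
Log2 ratio of 2 transcripts in TPM within each library, 1 panel per ratio, with MI left of sham; circles are replicates 1 and 2 and triangles replicates 3 to 6. Plin2 to Plin5 and Dgat1 to Dgat2 lie higher in MI with no overlap, Lpl to Angptl4 and the 3 Pnpla2 ratios lie lower in MI with no overlap, and Plin5 to Tnni3 is mixed.

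Around the 10 genes, 4 lists of further genes of the same pathways were read by role. By the same rule 29.8% of all genes tested fell and 28.1% rose, and the counts of each list stand beside these shares. Shares of all genes with library size alone are not given, and that scaling moves the median of all genes by 0.41. Of 16 other coat and assembly genes 13 were tested, and 7 fell, 3 rose and 3 were not called, with a median log2 fold change of -0.38 beside 0.014 over all genes. Scaled by library size alone, 6 fell and 4 rose. Plin3 fell (-1.44, SE 0.08, edgeR adjusted p = 1.57e-08), as did Fitm2 (-2.26, SE 0.30, 2.3e-05), whose product is needed for droplets to bud from the endoplasmic reticulum, and the droplet-associated Mettl7a1 (-1.05, SE 0.06, 3.37e-08). Aup1, a droplet protein of the endoplasmic reticulum quality control, had a log2 fold change of 0.16 and was not called, though it rose when scaled by library size alone. Ldah was called lower, and its log2 fold change was 0.03 when scaled by library size alone.

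Among other lipases and their regulators, 10 of 17 genes in the table were tested, and 6 fell, 1 rose and 3 were not called (median -0.995, and 5 fell and 3 rose when scaled by library size alone). Lipa, the acid lipase of lysosomes, rose (1.82, SE 0.12, edgeR adjusted p = 5.05e-08), at 182 ± 43.9 and 93.2 ± 1.36 TPM in MI against 23.9 ± 0.601 and 19.6 ± 1.29 TPM in sham (SD, n = 2 and 4). It moved against the cytosolic lipases Pnpla2 and Lipe. Pnpla8, a calcium-independent phospholipase, fell (-1.35, SE 0.09, edgeR adjusted p = 4.89e-08), and Ddhd2, a triglyceride hydrolase of brain, stood at 0.03 and was not called, though it rose when scaled by library size alone. Aadac and Ces1c were not analysed here.

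Among the genes of glycerolipid synthesis, which supply diglyceride to the DGAT step, 13 of 16 were tested, and 9 fell, 2 rose and 2 were not called (median -0.91, and 6 fell and 3 rose when scaled by library size alone). Agpat2 and Agpat3, acyltransferases that make phosphatidic acid, fell (-1.5, SE 0.08, edgeR adjusted p = 7.49e-09, and -1.26, SE 0.10, 3.48e-07). Lpin2, a phosphatidic acid phosphatase, rose (1.0, SE 0.06, edgeR adjusted p = 1.55e-08). Lpin1, of the same family, fell (-2.35, SE 0.28, edgeR adjusted p = 8.04e-06), and Lpin3 was not called. Over the 12 libraries Lpin1 averaged 23.5 TPM and Lpin2 6.08 TPM. Gpat4, the most abundant gene of the list that was not called, stood at 0.03. Agpat5 was called lower, and its log2 fold change was 0.04 when scaled by library size alone.

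Of 27 genes of lipoprotein triglyceride and fatty acid uptake in the table, 24 were tested, and 11 fell, 9 rose and 4 were not called (median 0.205, and 9 fell and 12 rose when scaled by library size alone). The fatty acid transport gene Slc27a1 fell (-1.37, SE 0.06, edgeR adjusted p = 2.88e-09), as did the acyl-CoA synthetase gene Acsl6 (-3.70, SE 0.23, 3.06e-08). Acsl6 averaged only 3.59 TPM over the 12 libraries. Among the other listed synthetase genes Acsl1, at 199 TPM, fell (-2.78), while Acsl3, Acsl4 and Acsl5 rose (0.51, 0.90 and 0.97). Apoc2, the activator of lipoprotein lipase, rose (4.32, SE 0.33, edgeR adjusted p = 1.9e-07), at 21.1 ± 7.40 and 9.0 ± 1.35 TPM in MI against 0.305 ± 0.134 and 0.547 ± 0.252 TPM in sham (SD, n = 2 and 4). So the activator and the inhibitor Angptl4 both rose while Lpl fell. Lmf2, a paralogue of the lipase maturation gene Lmf1, stood at 0.42 and was not called, though it rose when scaled by library size alone. Cav1 was called lower, and its log2 fold change was 0.02 when scaled by library size alone. Apoc3 and Apoa5 were not analysed here.

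**Figure D5:**
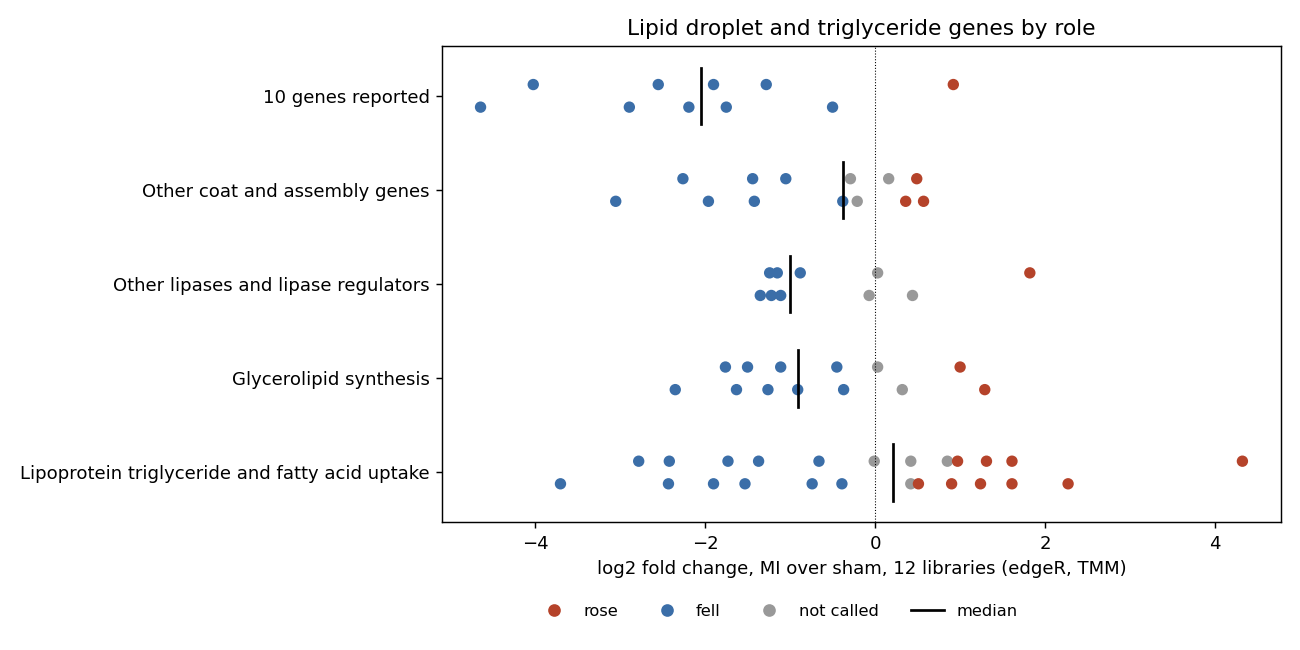
Log2 fold change of each tested gene, MI over sham, from the 12-library edgeR test with TMM scaling, for the 10 genes and 4 further lists; red points rose, blue points fell, grey points were not called and black bars are medians. The 10 genes have a median of -2.04 and 1 red point, Plin2, while the uptake list has points on both sides and a median of 0.205; Dgat1, Ldah, Ces2e, Agpat1, Agpat5, Gk, Cav1 and Cav2 lose their fall when library size alone is used.

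The genes whose levels ran most like each of the 10 were found by Pearson's correlation of log2 CPM over the 12 libraries, which share group, set and scaling. Plin5 ran most like Hrc (r = 0.999), Pnpla2 like Aldh4a1 (0.999), Cd36 like Emc2 (0.999), Lpl like Acaa2 (0.998) and Dgat2 like Mrps30 (0.998). Plin4 ran most like Akap1 (0.997), Ces1d like Aldh6a1 (0.995), Lipe like St3gal3 (0.991) and Dgat1 like Dnd1 (0.981). Plin2 ran most like H2-K1 (0.980). With 2 groups and 2 sets behind 12 libraries, such values describe a common pattern only.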

How the data were processed

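Per the labels' protocols, Magzol was used to extract RNA and oligo(dT) beads to capture mRNA, and the submitters' processing notes name Bowtie2, RSEM and DESeq2 for replicates 3 to 6, no tool for replicates 1 and 2, and GRCm38 for all. Strandedness and versions are not given in the sources used here. The authors deposited expected counts (estimated, unscaled), TPM (per length, scaled to a common total) and FPKM (per length and fragment total) for 18050 genes in 12 libraries. Of these, 425 are blank in replicates 1 and 2 and were left out of fits with those libraries. A separate deposited table holds FPKM of replicates 1 and 2 for 17723 genes and was not used for tests.

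Counts rounded to whole numbers were analysed with edgeR 4.0.16 in R 4.3.3 (quasi-likelihood, TMM, filterByExpr, set as covariate, Benjamini-Hochberg), over 12 libraries (13654 genes) and with replicates 3 to 6 summed (13970 genes), in each set alone, and for the interaction of set and group. DESeq2 1.42.0 and limma 3.58.1 on log2(FPKM + pseudocount) served as alternatives, as did other scalings, filters, thresholds, a replicate block, and leaving out libraries. Nothing in the labels pairs MI with sham libraries. Same-numbered MI and sham libraries deviated with correlations of -0.0393 to 0.0594, which cannot show whether numbers pair samples. Replicates 1 and 2 give the same value, since deviations from a mean of 2 libraries mirror each other. Ratios of TPM were tested by exact permutation. The scripts were tested on simulated data. Members and lists were chosen with earlier results of these data known. Beside the 10 genes, the text names from each list the 3 called genes of smallest adjusted p and the most abundant uncalled one, the genes of the ratios and each gene's nearest correlate. Ldah, Agpat1, Agpat5, Gk, Cav1, Cav2, Ces1e, Ces1f, Ces1g, Ces2e and Plin1 were named after their values were seen, as were the genes that mark lung and globin. So were Lpin1, Lpin3, Acsl1, Acsl3, Acsl4, Acsl5, Pecam1, Cdh5, Kdr and Emcn.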

Additional observations from a re-analysis of the deposited data

Results flagged for a closer look

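The effect of MI differed between the 2 sets of replicates for 5 of the 10 genes, by an interaction test of set and group called both over 12 libraries and with replicates 3 to 6 counted once. As replicates 3 to 6 minus replicates 1 and 2, the log2 fold change of MI over sham differed by 3.11 for Plin5, 1.53 for Plin4, 1.5 for Dgat2, 1.42 for Cd36 and 1.08 for Pnpla2, where 10.5% of all tested genes were called. For Pnpla2 and Plin4 the sham libraries of the sets lay further apart than the MI libraries, at 72.0 and 62.6 TPM in MI and 343 and 143 TPM in sham for Pnpla2, and at 9.44 and 12.5 TPM in MI and 46.0 and 21.6 TPM in sham for Plin4. Set and processing notes go together, so an effect of either cannot be told apart. The lung epithelial and beta-globin transcripts also parted MI from sham within replicates 3 to 6. Their part in these differences was not tested. No library stood out from its group in the 40 gene and group combinations of replicates 3 to 6 and of all 6 replicates that were examined, where chance would be about 5%. The search was for 1 library apart from the rest. It could not flag replicates 1 and 2 where they stood apart together, as they did for Plin5 in MI.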

How the results depend on the processing

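Under every alternative run over 12 libraries, 9 genes were called lower and 1 higher in MI, apart from Dgat1, whose log2 fold change of -0.50 became -0.09 with library size alone, -0.10 and -0.11 with limma on FPKM, none of them called, and 0.08 in replicates 3 to 6 alone with library size alone, a combination chosen after seeing the data. Nothing in the labels pairs the samples by replicate number, and with a replicate block 9 genes were lower and 1 higher. Counted once, the number of genes higher in MI, 1, was 0 to 1 when a library was left out and 0 at an adjusted p under 0.01. Dgat1 lost its call counted once when replicate 1 or 2 of either group was left out (edgeR adjusted p = 0.0583 to 0.0794). The number of genes that differed between sets, 5 counted once, was 2 with no filter on low counts, where Plin4, Dgat2 and Cd36 were lost. Dgat2 also missed the threshold counted once with library size alone (edgeR adjusted p = 0.0503), and Ces1d over 12 libraries without MI replicate 1 (1.27, 0.059). The Plin2 difference between sets, -0.09, was -0.44 without MI replicate 1 and turned to 0.48 without MI replicate 2, both called, and 0.10 without sham replicate 1. With replicates 3 to 6 counted once, ratios kept their direction, but an exact permutation test of 3 against 3 cannot go below 0.1. By that test p was 0.2 for Lpl to Gpihbp1, 0.3 for Cd36 to Lpl, 0.4 for Plin5 to Tnni3 and 0.1 for every other ratio. The causes were not tested. The lowest expected counts of the 10 genes were 14.01 and 46 for Ces1d and 85 and 120 for Plin5, all in MI replicates 1 and 2, and a depth limit was not tested.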
